A study of Equus caballus with 18 samples.

Results

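The levels of 6 genes that the study listed as regulators of muscle adaptation, PRKACA, FBXO32, NOS3, NOTCH1, GTF2IRD1 and JARID2, are described here over 18 skeletal muscles of 1 male Jeju horse, a pony of Jeju Island in Korea. The same list also held MYH7 and ATP2A2, which were left out. The deposited table holds 25239 genes under Ensembl identifiers without names. Each of the 6 genes was therefore found as the single identifier whose counts equalled, in all 18 muscles, the counts that the study had printed for that gene. No other identifier equalled the printed counts of a gene in more than 2 muscles, and all 6 genes passed the filter on low counts. Their identifiers were ENSECAG00000016874 for PRKACA, ENSECAG00000016002 for FBXO32, ENSECAG00000024562 for NOS3, ENSECAG00000022405 for NOTCH1, ENSECAG00000019745 for GTF2IRD1 and ENSECAG00000011721 for JARID2.

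Total RNA, with ribosomal RNA removed, was sequenced from 1 library per muscle after the animal was slaughtered. Its birth date is stated by the study, but its age at slaughter is not. The 10 anterior muscles were the long head of triceps brachii, biceps brachii, infraspinatus, supraspinatus, rhomboideus, trapezius, omohyoideus, pectoralis major, extensor digitorum communis and extensor carpi radialis. The 7 posterior muscles were semitendinosus, gluteus superficialis, the vertebral, middle and caudal parts of biceps femoris, extensor digitorum longus and extensor digitorum lateralis, and longissimus thoracis and lumborum was the 1 trunk muscle. The muscle called pectoralis major in the labels is named pectoralis ascendens in the study. The study clustered the same counts into groups A and B of 9 muscles each and divided each group into 3 subgroups. A1 held triceps brachii, infraspinatus, supraspinatus and longissimus. A2 held rhomboideus, trapezius and extensor digitorum communis, and A3 held biceps brachii and the caudal part of biceps femoris. Semitendinosus, gluteus superficialis, pectoralis major and the other two parts of biceps femoris formed B1, omohyoideus and extensor digitorum lateralis formed B2, and extensor carpi radialis and extensor digitorum longus formed B3. The study exchanges the names A1 and A2 in 1 of its displays, and the names that go with its printed counts are used.

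Skeletal muscle changes its fiber type, mass and blood supply with use, a capacity known as muscle plasticity. PRKACA encodes the catalytic subunit alpha of protein kinase A, the enzyme that cyclic AMP switches on below adrenergic receptors. NOS3 is the nitric oxide synthase of the endothelium, which relaxes blood vessels, and NOTCH1 is a cell surface receptor that acts in endothelium and keeps muscle stem cells quiescent. FBXO32, also called atrogin-1, is the substrate-binding subunit of a ubiquitin ligase known for its rise in wasting muscle. GTF2IRD1 is a transcription factor of the TFII-I family that was described in muscle as a regulator of the slow troponin I gene, and JARID2 is an accessory subunit of polycomb repressive complex 2, which methylates histone H3.

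Libraries held 31395013 to 50508515 counts in genes. Both extremes were in group B, while the 9 libraries of A spanned 33537488 to 39254160. Levels are given as CPM, counts scaled to the size of the library, after normalization by trimmed mean of M-values (TMM), whose factors ran from 0.821 to 1.41. Brackets hold 95% Poisson intervals, which cover no error beyond counting. Amplified copies of 1 molecule cannot be recognized in a table of counts and are not allowed for. A muscle measured once has no known technical error, and a difference between muscles of 1 animal is not a difference between horses. In bulk muscle, fewer cells of a type and less RNA per cell cannot be told apart. The study formed A and B from these counts and took the 6 genes from those it found higher in A, so values by group and subgroup are a description and carry no test.

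PRKACA, the kinase subunit, was the gene of the 6 with the clearest separation of A from B. In A its level was 29.8 CPM at the lowest, 41.8 at the median and 47.9 at the highest. In B it was 11.8 CPM at the lowest, 16.9 at the median and 19.7 at the highest. The ranges did not overlap, and PRKACA was higher in A in 81 of 81 pairs of muscles. The means were 38.3 ± 6.43 CPM in A and 16.5 ± 2.64 in B (SD, n = 9 each), which is 2.32 times. Of 12978 genes that passed the filter, 1.26% were higher in A with no overlap, and PRKACA was 1 of the 6 members to do so. Group membership accounted for 87.3% of the variance of its log2 CPM over the 18 muscles.

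Within group A, PRKACA was highest in supraspinatus at 47.9 CPM [45.8 to 50.2], above rhomboideus at 42.8 [40.7 to 44.9]. The levels of rhomboideus, infraspinatus (42.7), trapezius (42.01) and longissimus (41.8) followed each other within their counting intervals. The other 4 muscles of A formed a lower set. It held 33.4 CPM in the caudal part of biceps femoris, 33.2 in triceps brachii, 31.3 in extensor digitorum communis and 29.8 in biceps brachii. With library totals alone this set was not apart, since infraspinatus had 35.2 CPM, biceps brachii 34.5 and triceps brachii 27.3. All 5 muscles of B1 lay close together, between 16.9 CPM in semitendinosus and 19.7 in the vertebral part of biceps femoris, with a mean of 18.4 ± 1.0 (SD, n = 5). In B2 and B3 the levels were lower, at 15.6 CPM in omohyoideus and 11.8 in extensor digitorum lateralis, and at 13.3 in extensor carpi radialis and 15.9 in extensor digitorum longus. Both patterns of B likewise rested on TMM. With library totals alone B1 ran from 15.8 CPM in pectoralis major to 25.8 in gluteus superficialis, and omohyoideus had 22.0. Over the whole order of 18 muscles only 3 of 17 neighbouring pairs had intervals that did not overlap. These were the steps from supraspinatus to rhomboideus, from longissimus to the caudal part of biceps femoris, and from biceps brachii in A to the vertebral part of biceps femoris in B.

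**Figure D1:**
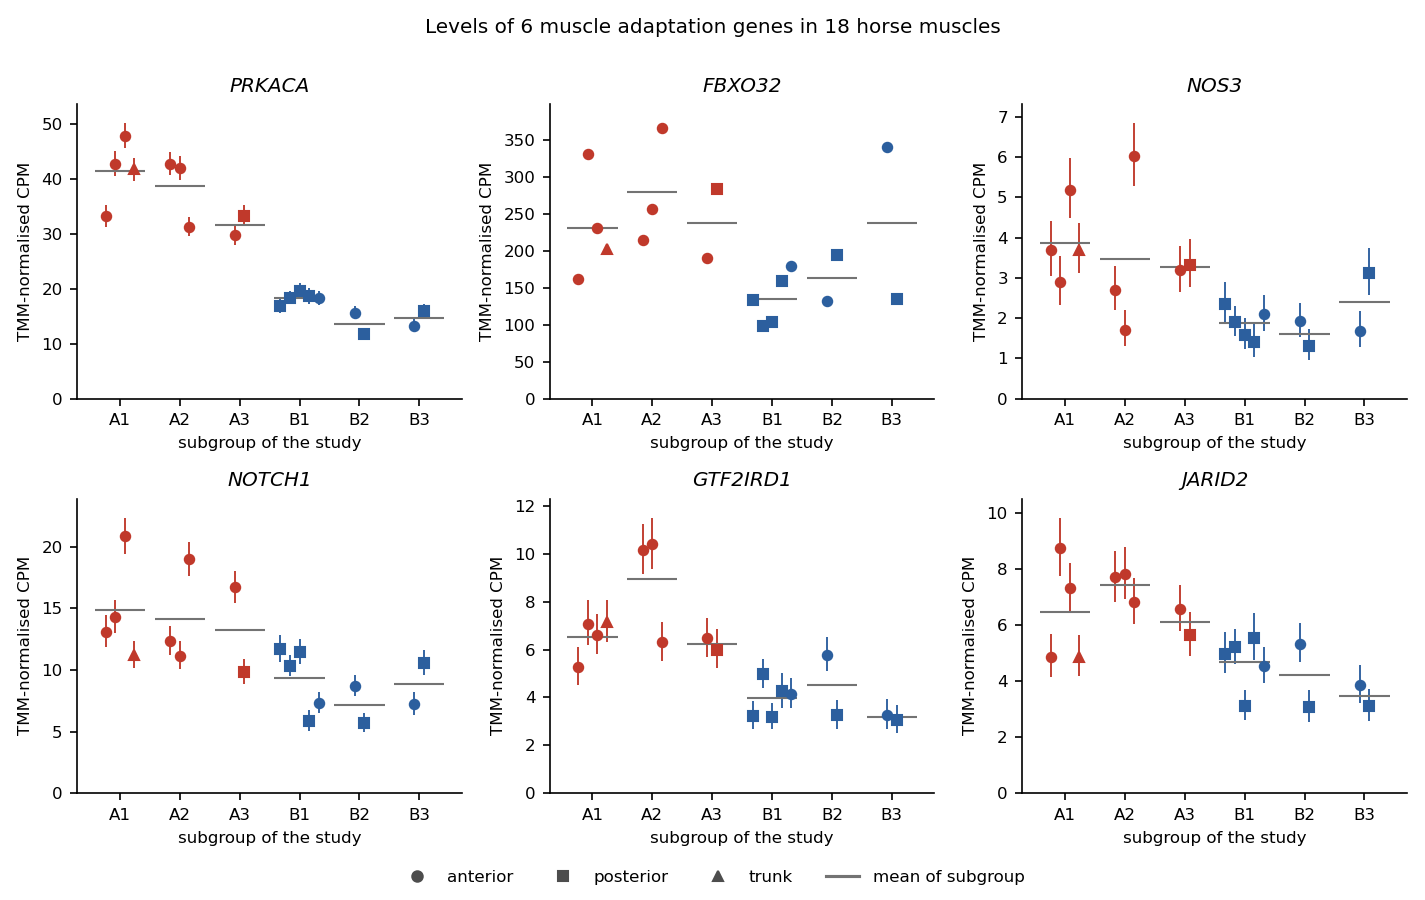
TMM-normalised CPM (y axes, from 0) of each gene in the 18 muscles, grouped by the subgroups of the study (x axes), with red points for group A, blue for group B, circles for anterior, squares for posterior and a triangle for the trunk muscle. Vertical bars are 95% Poisson intervals, smaller than the points for FBXO32, and grey lines are subgroup means; the PRKACA points of A, from 29.8 CPM up, all lie above those of B, up to 19.7 CPM, while the other 5 genes overlap.

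FBXO32, the ubiquitin ligase subunit, was higher on average in A, but 1 muscle of B came second in its order. Its level in A was 161 CPM at the lowest, 230.3 at the median and 366 at the highest, against 98.4, 134.4 and 340.2 CPM in B. The means were 249 ± 67.6 CPM in A and 164 ± 73.3 in B (SD, n = 9 each), a ratio of 1.52, and FBXO32 was higher in A in 70 of 81 pairs. The overlap came mainly from extensor carpi radialis of B3, which at 340.2 CPM [334 to 346] was second of all 18 muscles, between extensor digitorum communis of A2 at 366 [360 to 372] and infraspinatus of A1 at 330.9 [325 to 337]. Without extensor carpi radialis the difference of mean log2 CPM between A and B was 0.80, compared with 0.65 over all muscles.

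The subgroups of FBXO32 were themselves spread widely. Besides infraspinatus, the muscles of A1 had 230.3 CPM in supraspinatus, 202 in longissimus and 161 in triceps brachii. Besides extensor digitorum communis, A2 had 256.8 CPM in trapezius and 215 in rhomboideus, and A3 had 283.8 in the caudal part of biceps femoris and 191 in biceps brachii. B1 held the lowest levels, with 98.4 CPM in gluteus superficialis and 104.04 in the vertebral part of biceps femoris, followed by 134.0 in semitendinosus, 159 in the middle part of biceps femoris and 180.0 in pectoralis major. The B2 muscles had 132 CPM in omohyoideus and 194 in extensor digitorum lateralis, and extensor digitorum longus of B3 had 134.4. With library totals alone the vertebral part of biceps femoris was lowest, at 120.4 CPM. Gluteus superficialis then had 138.0, above extensor digitorum longus at 127.4 and triceps brachii at 132.6, and omohyoideus had 186.1. As the gene with the most reads, FBXO32 also had the smallest counting error. Only 7 of 17 neighbouring pairs in its order with TMM had overlapping counting intervals. The group accounted for 35.4% of its variance, the smallest share of the 6 genes.

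NOS3, the endothelial synthase, had the fewest reads of the 6 genes, down to 45 counts in the middle part of biceps femoris. In A its level was 1.71 CPM at the lowest, 3.33 at the median and 6.02 at the highest, and in B it was 1.30, 1.90 and 3.11 CPM. The means were 3.60 ± 1.30 CPM in A and 1.93 ± 0.554 in B (SD, n = 9 each), a ratio of 1.87, with A higher in 74 of 81 pairs. NOS3 stood out in 2 muscles of the forequarter, extensor digitorum communis at 6.02 CPM [5.28 to 6.84] and supraspinatus at 5.20 [4.49 to 5.98]. The next level was 3.70 in longissimus [3.11 to 4.37], and the step down to it was the only 1 of 17 between neighbours whose intervals did not overlap.

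The remaining levels of NOS3 in A were 3.69 CPM in triceps brachii, 3.33 in the caudal part of biceps femoris, 3.19 in biceps brachii, 2.88 in infraspinatus, 2.70 in rhomboideus and 1.71 in trapezius. Trapezius thus lay among the muscles of B, and A2 alone ranged from 1.71 to 6.02 CPM. In B1 the levels ran from 1.41 CPM in the middle part of biceps femoris over 1.59 in its vertebral part, 1.90 in gluteus superficialis and 2.09 in pectoralis major to 2.36 in semitendinosus. In B2 they were 1.92 CPM in omohyoideus and 1.30 in extensor digitorum lateralis, the lowest of all. In B3 they were 1.68 CPM in extensor carpi radialis and 3.11 in extensor digitorum longus, and the latter reached into the range of A. The coefficient of variation of NOS3 over the 18 muscles was 46.9%, while counting error at its mean count gives 9.74%. Markers of endothelium have no name in these data, and the part of vessel content in the NOS3 and NOTCH1 levels was not tested.

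NOTCH1, the receptor, had the same muscles at the top as NOS3, in the other order. Supraspinatus had 20.9 CPM [19.4 to 22.4] and extensor digitorum communis 19.0 [17.7 to 20.4], followed by biceps brachii at 16.7 [15.5 to 18.0]. Infraspinatus had 14.3 CPM, triceps brachii 13.1, rhomboideus 12.3, longissimus 11.2, trapezius 11.2 and the caudal part of biceps femoris 9.85, the lowest of A. The levels of B were 11.7 CPM in semitendinosus, 11.5 in the vertebral part of biceps femoris, 10.6 in extensor digitorum longus, 10.3 in gluteus superficialis, 8.72 in omohyoideus, 7.33 in pectoralis major, 7.21 in extensor carpi radialis, 5.82 in the middle part of biceps femoris and 5.67 in extensor digitorum lateralis. The means were 14.3 ± 3.796 CPM in A and 8.76 ± 2.36 in B (SD, n = 9 each), a ratio of 1.63. A was higher in 73 of 81 pairs, and in 60 of 81 pairs where CPM was taken from library totals without TMM. None of the 17 neighbouring pairs in the NOTCH1 order had counting intervals that stood apart, so the order is known only between muscles further from each other.

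With TMM, GTF2IRD1, the transcription factor, came next to PRKACA in how well its levels separated the groups. Its level in A was 5.27 CPM at the lowest, 6.63 at the median and 10.4 at the highest, and in B it was 3.06, 3.28 and 5.79 CPM. The means were 7.28 ± 1.80 CPM in A and 3.91 ± 0.963 in B (SD, n = 9 each), a ratio of 1.86. GTF2IRD1 was higher in A in 80 of 81 pairs, the exception being triceps brachii of A at 5.27 CPM [4.51 to 6.13] and omohyoideus of B at 5.79 [5.10 to 6.54], whose intervals overlap. This near separation rested on the scaling, since A was higher in 68 of 81 pairs with library totals alone. NOS3 then came before GTF2IRD1, with 71 of 81 pairs, and FBXO32 equalled it with 68.

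The GTF2IRD1 levels of trapezius (10.4 CPM [9.38 to 11.5]) and rhomboideus (10.2 [9.16 to 11.2]), both in A2 and both muscles of the shoulder girdle, stood above the rest. In the order with TMM, the step from rhomboideus to longissimus at 7.16 CPM was the only 1 of 17 without overlapping intervals. Extensor digitorum communis, the remaining muscle of A2, had 6.30 CPM, so that the mean of 8.96 ± 2.30 in A2 (SD, n = 3) was carried by the girdle muscles. The other levels in A were 7.07 CPM in infraspinatus, 6.63 in supraspinatus, 6.48 in biceps brachii and 6.0 in the caudal part of biceps femoris. In B, after omohyoideus, gluteus superficialis had 4.98 CPM, the middle part of biceps femoris 4.25 and pectoralis major 4.16. Extensor carpi radialis, extensor digitorum lateralis, semitendinosus, the vertebral part of biceps femoris and extensor digitorum longus were within 3.06 to 3.28 CPM and could not be told apart by their counts. With library totals alone omohyoideus of B, at 8.19 CPM, came directly after rhomboideus (10.97) and trapezius (10.19). Gluteus superficialis of B then had 6.99 CPM, above longissimus at 6.92.

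JARID2, the polycomb subunit, varied least among the 6 genes, with a highest level 2.86 times its lowest. Infraspinatus was at the top with 8.75 CPM [7.76 to 9.83], followed by trapezius at 7.81, rhomboideus at 7.70, supraspinatus at 7.32, extensor digitorum communis at 6.81 and biceps brachii at 6.58. The caudal part of biceps femoris had 5.65 CPM, and triceps brachii and longissimus were the lowest of A at 4.87 each, below 4 muscles of B. These were the middle part of biceps femoris at 5.54 CPM, omohyoideus at 5.34, gluteus superficialis at 5.20 and semitendinosus at 4.98. The other muscles of B had 4.53 CPM in pectoralis major, 3.84 in extensor carpi radialis, 3.11 in extensor digitorum longus, 3.10 in the vertebral part of biceps femoris and 3.06 in extensor digitorum lateralis. The means were 6.71 ± 1.353 CPM in A and 4.30 ± 1.03 in B (SD, n = 9 each), a ratio of 1.56, and A was higher in 73 of 81 pairs. As for NOTCH1, all 17 neighbouring pairs had overlapping counting intervals. This order rested on TMM, and A was higher in 67 of 81 pairs with library totals alone. Omohyoideus (7.55 CPM) and gluteus superficialis (7.30), both of B, then lay above infraspinatus (7.21).

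All 6 genes had a higher mean in A than in B, as their choice by the study implies, with a median difference of 0.78 in mean log2 CPM against -0.00036 over all 12978 genes. The muscles within a group still differed in which of the genes was high. Supraspinatus and extensor digitorum communis were each first for 2 genes, NOTCH1 and PRKACA in the former and FBXO32 and NOS3 in the latter, while infraspinatus was first for JARID2 and trapezius for GTF2IRD1. With library totals alone rhomboideus was first for both JARID2 (8.31 CPM, with 7.21 in infraspinatus) and GTF2IRD1 (10.97 CPM), and PRKACA, NOS3, NOTCH1 and FBXO32 had the same first muscle. With TMM, trapezius combined the highest GTF2IRD1 level with place 14 of 18 for NOS3. Extensor digitorum lateralis was last for 4 genes, PRKACA, NOS3, NOTCH1 and JARID2, and had a mean rank of 16, yet it took place 9 for FBXO32.

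**Figure D2:**
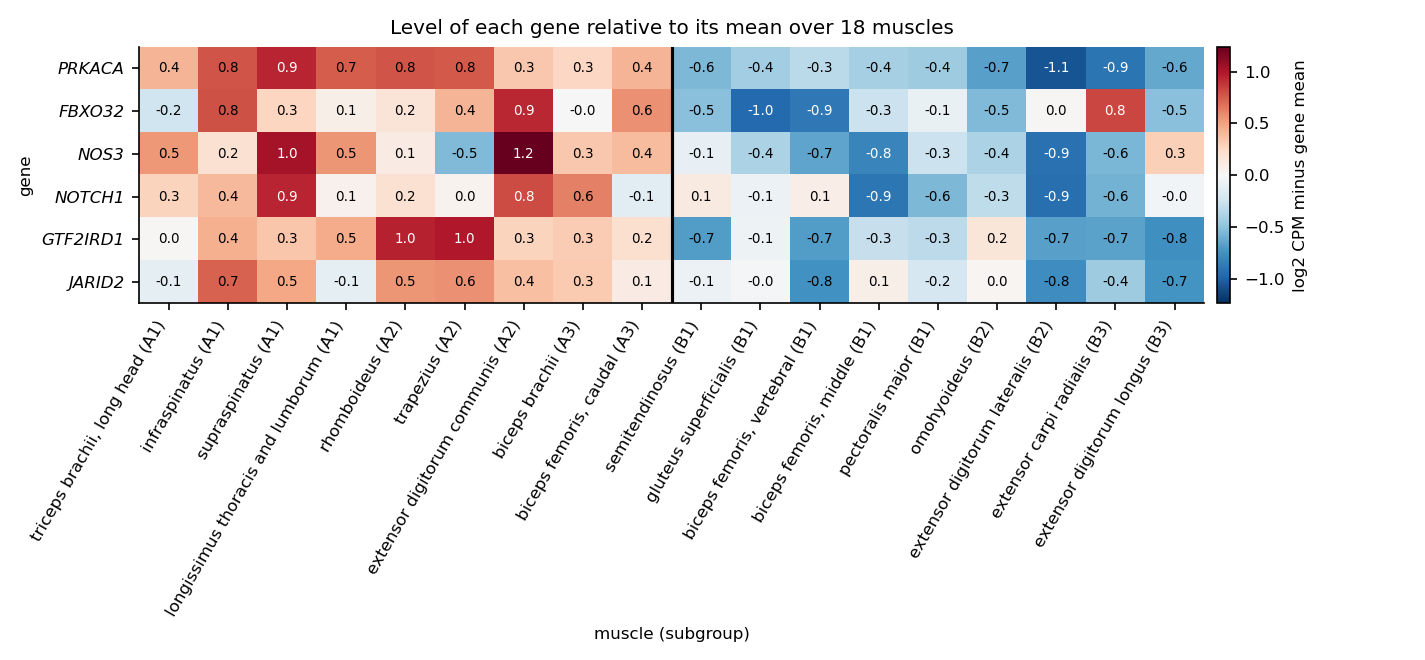
Log2 CPM of each gene (rows) in each muscle (columns, subgroup in brackets) minus the mean of that gene over 18 muscles, in red where above and in blue where below that mean. A black line separates group A on the left from group B on the right, and the FBXO32 level of extensor carpi radialis in B (0.8) and the NOS3 level of trapezius in A (-0.5) run against their groups.

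The study placed parts of 1 muscle, biceps femoris, in different groups, and these were compared by ratios of CPM with TMM. The caudal part of biceps femoris, in A3, differed from the middle part of the same muscle, in B1, by a ratio of 1.79 for PRKACA [1.62 to 1.98], 1.78 for FBXO32 [1.72 to 1.84] and 2.36 for NOS3 [1.67 to 3.41]. For NOTCH1 the ratio was 1.69 [1.41 to 2.03] and for GTF2IRD1 it was 1.41 [1.13 to 1.76]. JARID2 did not follow, with a ratio of 1.02 and an interval from 0.830 to 1.25. Against the vertebral part, also in B1, the caudal part was higher for JARID2 (1.82 [1.46 to 2.28]) and lower for NOTCH1 (0.857 [0.746 to 0.983]). It was also higher for PRKACA (1.69 [1.55 to 1.85]), FBXO32 (2.73 [2.63 to 2.83]), NOS3 (2.10 [1.55 to 2.87]) and GTF2IRD1 (1.88 [1.51 to 2.34]). The vertebral and middle parts, both in B1, had like levels of PRKACA (1.06 [0.949 to 1.17]) and NOS3 (1.13 [0.762 to 1.68]). They differed for NOTCH1 by a ratio of 1.98 [1.67 to 2.35] and for JARID2 by 0.560 [0.444 to 0.705]. For FBXO32 the ratio was 0.654 [0.628 to 0.681] and for GTF2IRD1 0.751 [0.588 to 0.959]. Part of this rested on TMM. With library totals alone the vertebral and middle parts had 22.8 and 16.4 CPM of PRKACA and 1.84 and 1.24 of NOS3, and so were not alike. GTF2IRD1 then had 3.70 and 3.74 CPM. The directions of NOTCH1 (13.3 and 5.11), JARID2 (3.59 and 4.87) and FBXO32 (120.4 and 139.8) were kept.

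The digital extensors of fore and hind limb were compared in the same way. Extensor digitorum communis of the forelimb, in A2, was above extensor digitorum longus of the hind limb, in B3, for all 6 genes. The ratio was 1.962 for PRKACA [1.78 to 2.17], 2.73 for FBXO32 [2.64 to 2.82] and 1.93 for NOS3 [1.54 to 2.43]. It was 1.80 for NOTCH1 [1.59 to 2.04], 2.06 for GTF2IRD1 [1.64 to 2.59] and 2.19 for JARID2 [1.75 to 2.74]. Against extensor carpi radialis, its neighbour in the forelimb in B3, the NOS3 ratio was 3.58 [2.67 to 4.86] and the FBXO32 ratio 1.08 [1.05 to 1.10]. For PRKACA it was 2.36 [2.11 to 2.63] and for NOTCH1 2.64 [2.28 to 3.06]. GTF2IRD1 had 1.92 [1.53 to 2.43] and JARID2 1.77 [1.43 to 2.20]. Extensor digitorum lateralis over extensor digitorum longus gave 0.739 for PRKACA [0.652 to 0.837] and 1.44 for FBXO32 [1.39 to 1.49]. For NOS3 this ratio was 0.418 [0.293 to 0.589] and for NOTCH1 0.536 [0.452 to 0.635]. It was 1.06 for GTF2IRD1 [0.815 to 1.38] and 0.982 for JARID2 [0.753 to 1.28]. These intervals cover counting error between libraries. They cover neither the error between preparations of a muscle nor the choice of scaling.

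Position in the body comes from the labels, but it is not free of the way the genes were chosen. They were taken as higher in A, and 7 of 10 anterior but only 1 of 7 posterior muscles belonged to A, so the choice of genes also favored a higher anterior level. For all 6 genes the fitted level was higher in the 10 anterior than in the 7 posterior muscles. No gene of the 6, however, passed the threshold of edgeR's adjusted p. The vertebral, middle and caudal parts of biceps femoris were counted as separate posterior muscles. The log2 fold change was 0.72 for PRKACA (SE 0.26, adjusted p = 0.199 by edgeR's quasi-likelihood test with Benjamini-Hochberg adjustment), 0.71 for GTF2IRD1 (SE 0.22, adjusted p = 0.150) and 0.60 for FBXO32 (SE 0.24, adjusted p = 0.238). For JARID2 and NOS3 it was 0.54 each (SE 0.19 and 0.28, adjusted p = 0.192 and 0.360), and for NOTCH1 it was 0.48 (SE 0.22, adjusted p = 0.304). The median over the 6 genes was 0.57 and over all genes tested 0.0025. Of all 12978 genes, 5 were called (0.0385%). The unadjusted p was below 0.05 for 5 of the 6 genes, and 7.13% of all genes were higher in anterior muscles at that p, but nothing can be read from the excess in genes chosen for A. DESeq2 called 263 of 9178 genes (2.87%) and 1 of the 6, GTF2IRD1, at an adjusted p of 0.0495. The adjusted p of GTF2IRD1 ranged up to 0.881 over the other alternatives. With limb muscles only, the log2 fold change by edgeR was 0.82 for NOS3 (adjusted p = 0.297) and 0.55 for GTF2IRD1 (adjusted p = 0.314).

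An exact two-sided permutation test of mean log2 CPM, unadjusted and under the same limit on the choice of genes, gave p = 0.00977 for GTF2IRD1, 0.0194 for JARID2, 0.0284 for FBXO32, 0.0432 for PRKACA, 0.0926 for NOTCH1 and 0.119 for NOS3.

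The single values by position overlapped for every gene. GTF2IRD1 ranged from 3.28 CPM in extensor carpi radialis to 10.4 in trapezius among anterior muscles, with a median of 6.39, and from 3.06 to 6.0 among posterior muscles, with a median of 3.25. PRKACA among anterior muscles ranged from 13.3 to 47.9 CPM with a median of 32.3, and among posterior muscles from 11.8 to 33.4 with a median of 18.4.

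Values by position were therefore also set out within the groups. Among the anterior muscles PRKACA was 29.8 to 47.9 CPM in the 7 muscles of A and 13.3, 15.6 and 18.3 CPM in the 3 muscles of B. The 6 posterior muscles of B had 11.8 to 19.7 CPM, a range that contains the anterior muscles of B, and the only posterior muscle of A had 33.4. Because the groups were made from these counts and the genes were chosen for differing between them, a fit with group A or B as a term takes away part of the level itself, and its values are given as a description. In it the anterior log2 fold change was -0.011 for PRKACA (SE 0.16), -0.0066 for NOTCH1 (SE 0.23) and 0.02 for NOS3 (SE 0.28). It was 0.38 for FBXO32 (SE 0.25), 0.28 for GTF2IRD1 (SE 0.19) and 0.20 for JARID2 (SE 0.18). Within B alone, 3 anterior against 6 posterior muscles, the difference of mean log2 CPM was -0.10 for PRKACA, -0.20 for NOTCH1, 0.02 for NOS3, 0.17 for JARID2, 0.25 for GTF2IRD1 and 0.59 for FBXO32, likewise as a description. Group A held a single posterior muscle and gave no such values.

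**Figure D3:**
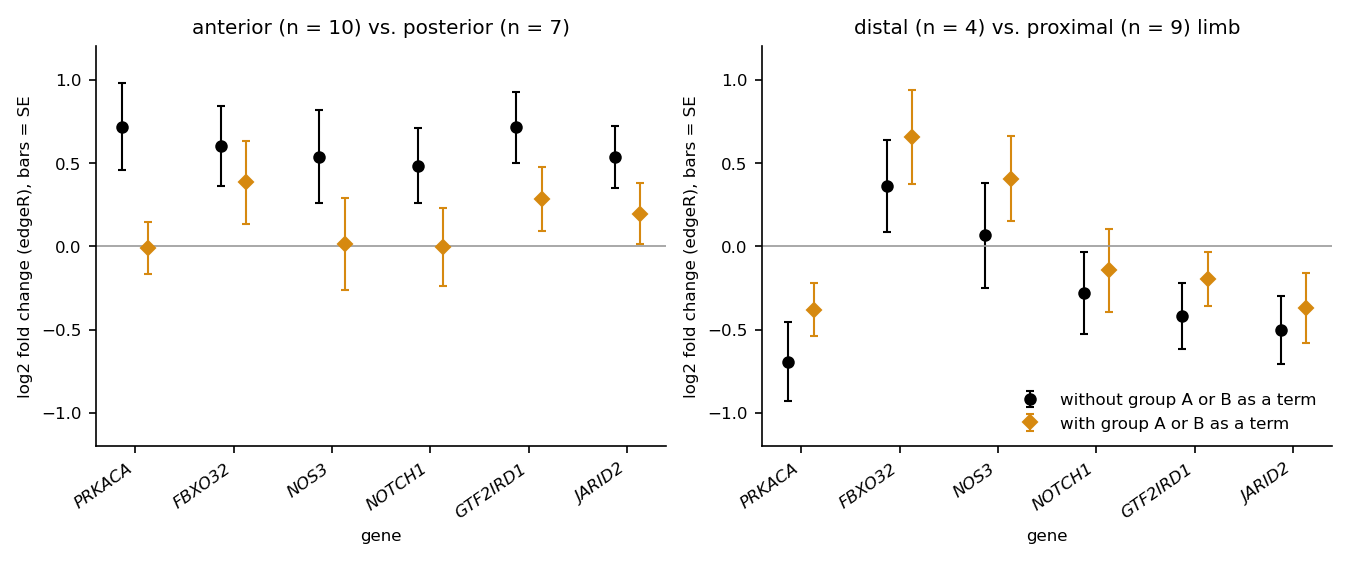
Log2 fold changes of the 6 genes by edgeR (y axes, bars are SE) for anterior vs. posterior muscles on the left and distal vs. proximal limb muscles on the right, without (black circles) and with (orange diamonds) group A or B as a term. On the left the 6 black points lie between 0.48 and 0.72, and PRKACA, NOS3 and NOTCH1 move to between -0.011 and 0.02 with the group in the fit.

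Among the segments with more than 1 muscle, the 4 proximal forelimb muscles had the highest mean for PRKACA, at 38.4 ± 8.39 CPM (SD, n = 4), and for NOTCH1, at 16.2 ± 3.42. The 5 proximal hindlimb muscles had 21.4 ± 6.77 CPM of PRKACA and 9.84 ± 2.38 of NOTCH1 (SD, n = 5). The 4 girdle and neck muscles had the highest mean of GTF2IRD1, 7.63 ± 3.14 CPM (SD, n = 4), but they ranged from 4.16 in pectoralis major to 10.4 in trapezius. Segment is bound to group here as well, since all 4 proximal forelimb muscles were in A and 4 of 5 proximal hindlimb muscles in B.

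Along the limb, the 4 extensors of the distal limb were compared with the 9 proximal limb muscles, with fore or hind limb as a covariate. Here too the choice of genes is not independent, since 3 of the 4 distal and 4 of the 9 proximal muscles belonged to B. PRKACA was at 31.3 CPM in extensor digitorum communis and at 15.9, 13.3 and 11.8 CPM in the other 3 extensors, and its proximal levels were 16.9 at the lowest, 29.8 at the median and 47.9 at the highest. Of the 6 genes, PRKACA and JARID2 had the lowest unadjusted p. The log2 fold change of PRKACA was -0.69 (SE 0.24, adjusted p = 0.0569, unadjusted p = 0.0103) and that of JARID2 was -0.50 (SE 0.20, adjusted p = 0.101, unadjusted p = 0.0254). No gene of the 6 was called, in a comparison where 16.9% of 13288 genes were. PRKACA passed the threshold with DESeq2 (-0.70, adjusted p = 0.0259), which called 18.6% of 14933 genes. It also passed without biceps brachii (-0.74, adjusted p = 0.0471) and without extensor digitorum communis (-0.91, adjusted p = 0.0329), while over all alternatives its adjusted p ran up to 0.175. JARID2 passed it only without extensor digitorum communis (-0.71, adjusted p = 0.0365). With group A or B as a term, again as a description, the log2 fold change was -0.38 for PRKACA (SE 0.16). It was 0.66 for FBXO32 (SE 0.28), 0.41 for NOS3 (SE 0.26) and -0.37 for JARID2 (SE 0.21). For GTF2IRD1 it was -0.20 (SE 0.16) and for NOTCH1 -0.14 (SE 0.25).

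The other 4 genes showed no common direction along the limb. GTF2IRD1 had a log2 fold change of -0.42 (SE 0.20, adjusted p = 0.156) and NOTCH1 of -0.28 (SE 0.25, adjusted p = 0.452), which was -0.55 without extensor digitorum communis and -0.087 without extensor carpi radialis. FBXO32 was at 0.36 (SE 0.28, adjusted p = 0.389), with distal levels of 366, 340.2, 194 and 134.4 CPM against a proximal median of 161 and range of 98.4 to 331. NOS3 was at 0.07 (SE 0.32, adjusted p = 0.906), and its sign was not stable. The value was -0.31 without extensor digitorum communis, -0.19 without extensor digitorum longus and -0.013 with library totals. Whether the difference along the limb itself differed between fore and hind limb was tested by an interaction term chosen after the data were seen, and the unadjusted p of the 6 genes by edgeR ranged from 0.331 for FBXO32 to 0.994 for NOS3.

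**Figure D4:**
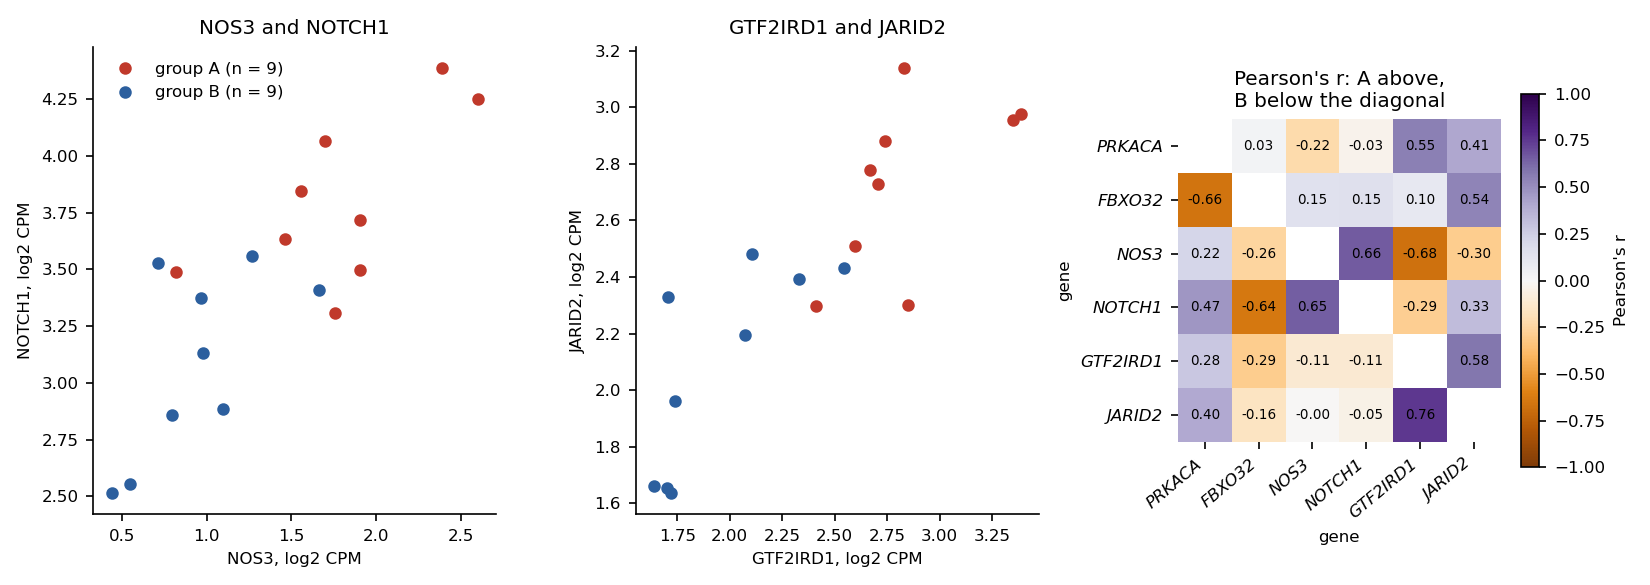
Log2 CPM of NOS3 against NOTCH1 and of GTF2IRD1 against JARID2 in the 9 muscles of A (red) and the 9 of B (blue), and Pearson's r of all pairs of the 6 genes, with A above and B below the diagonal. Both plotted pairs rise together in each group (r between 0.58 and 0.76), while PRKACA and FBXO32 have r = 0.03 in A and -0.66 in B.

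Because A and B form 2 clusters, covariation was described within each group of 9 muscles, with no test. With TMM the 15 pairs of genes had no common sign. The median Pearson's r was 0.15 in A, with 10 of 15 pairs above 0, and -0.05 in B, with 6 of 15 above 0. With library totals in place of TMM the median r was 0.33 in A and 0.56 in B, and in B all 10 pairs without FBXO32 were then positive, from 0.51 to 0.91, so the sign as well as the size of r depended on the scaling. NOS3 and NOTCH1 had r = 0.66 in A and 0.65 in B, with Spearman's rho of 0.52 and 0.65. Without the 2 muscles farthest from the median of NOS3, r was 0.52 and 0.51. GTF2IRD1 and JARID2 had r = 0.58 in A and 0.76 in B, with rho of 0.65 and 0.75, and r of 0.48 and 0.71 without the 2 farthest muscles. These muscles share an animal and the normalization, and the points differ in library depth.

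After the mean of its group was subtracted, each gene was ranked by its r with every other gene of the table over 18 muscles. NOTCH1 stood within the first 1.02% of 12977 genes in likeness to NOS3 (r = 0.64), and NOS3 within the first 1.85% in likeness to NOTCH1. JARID2 stood within the first 1.06% for GTF2IRD1 (r = 0.67), and GTF2IRD1 within the first 1.40% for JARID2. No other member came so early in any of these lists, and for PRKACA the first of them was GTF2IRD1 at 14.2%. The gene most like PRKACA was ENSECAG00000022815 (r = 0.88) and that most like NOS3 was ENSECAG00000005241 (r = 0.88), neither of which is named in the tables used here. The 5th and the 95th percentile of r over all genes were -0.60 and 0.56 for PRKACA and -0.40 and 0.47 for NOS3.

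Several pairs went in opposite directions. In A, NOS3 and GTF2IRD1 had r = -0.68 (rho -0.57, -0.46 without the 2 muscles farthest from the NOS3 median and -0.27 with library totals), with trapezius and rhomboideus high for GTF2IRD1 and low for NOS3. In B the same pair had r = -0.11, and 0.53 with library totals. PRKACA and FBXO32 had r = -0.66 in B, which was -0.16 without the 2 muscles farthest from the PRKACA median, and r = 0.03 in A. FBXO32 and NOTCH1 had r = -0.64 in B and 0.15 in A. Without the 2 farthest muscles these were -0.71 and -0.32, so the sign in A turned. The TMM factor of the library had r = -0.71 (rho -0.93) with FBXO32 in B and r = 0.57 (rho 0.67) with NOTCH1. Also in B, it had r = 0.65 (rho 0.28) with GTF2IRD1 and r = 0.38 (rho 0.43) with PRKACA. With JARID2 the r was 0.35 (rho 0.47) and with NOS3 it was 0.13 (rho 0.35). With library totals r in B was -0.47 for PRKACA and FBXO32 and -0.39 for FBXO32 and NOTCH1. With the same scaling the r of NOS3 with NOTCH1 was 0.73 in A and 0.85 in B, and that of GTF2IRD1 with JARID2 was 0.72 and 0.91.

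The slow myosin heavy chain MYH7 and the fast myosin heavy chain MYH1 served as a reference for fiber type, although MYH7 belongs to the same list of the study as the 6 genes. They were found by their printed counts in the same way, and reads of near-identical myosin genes could be split between them. MYH7 ranged from 861 CPM in extensor carpi radialis to 25829 in trapezius, and MYH1 from 132 in rhomboideus to 28063 in extensor carpi radialis. In A, GTF2IRD1 followed MYH7 (r = 0.92, rho = 0.75, and r = 0.72 without the 2 muscles farthest from the MYH7 median), and JARID2 had r = 0.67 (rho = 0.80, and r = 0.60 without them). In B the r with MYH7 was 0.28 for GTF2IRD1 and 0.25 for JARID2. Without the 2 muscles farthest from the MYH7 median these were -0.17 and -0.18. Extensor digitorum lateralis, with 12912 CPM of MYH7, the highest of B, had 3.25 CPM of GTF2IRD1. PRKACA had r = 0.46 with MYH7 in A and 0.02 in B, which were 0.28 and -0.50 without the 2 farthest muscles. NOS3 had -0.43 and 0.01, which turned to 0.45 and -0.53. FBXO32 had r = 0.40 in A (0.80 without the 2 farthest) and -0.30 in B (rho = 0.32, and r = 0.91 without the 2 farthest). NOTCH1 had -0.09 in A and -0.27 in B, and 0.41 and -0.71 without them. With MYH1 in A, GTF2IRD1 had r = -0.73, but rho = -0.35 and r = 0.06 without the 2 muscles farthest from the MYH1 median, and JARID2 had r = -0.51, rho = -0.55 and r = -0.29. Most of the values with either myosin thus moved far with the muscles left out.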

How the data were processed

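The authors trimmed reads with NGSQCToolkit, aligned them with STAR 2.5.2b in 2 passes to EquCab2 with the Ensembl annotation, and deposited raw counts per gene for 18 muscles. The study attributes the counts to the alignment step, and the counting mode and use of strand are not given in the sources used here. Fragments were read as pairs of 101 bases.

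Counts were filtered with filterByExpr, normalized by TMM and tested with glmQLFit and glmQLFTest of edgeR 4.0.16 in R 4.3.3, with Benjamini-Hochberg adjustment over all genes tested and a threshold of 0.05. Log2 CPM used a prior count of 2. Anterior and posterior were assigned from the muscle named in the labels, with longissimus left out, and groups A and B from the study. Where labels give only a muscle, the p-values measure the spread between muscles of 1 animal. The parts of biceps femoris entered the fits as separate muscles, so the p-values treat parts of 1 muscle as independent. DESeq2 1.42.0, other scalings and filters, a robust fit, other uses of single muscles and leaving out each muscle were alternatives.

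On simulated data with 200 genes changed by a log2 fold change of 2, edgeR recovered 192 for anterior vs. posterior, with 13 false calls among 12978 genes, and 179 for distal vs. proximal, with 13 among 13288. DESeq2 recovered 197 and 184, with 28 and 40 false calls, and made 1 and 3 calls on data without changes, where edgeR made 0. The log2 fold changes fitted by edgeR for the member genes were smaller. They ran from 0.48 to 0.72 for anterior vs. posterior and from -0.69 to 0.36 for distal vs. proximal. Recovery at such sizes was not simulated, so a member that was not called is not shown to be without a difference.

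The genes and lists were chosen with earlier results of these data known. Named genes were the 6 members, MYH7 and MYH1 as reference, and the gene most like PRKACA and NOS3. Lists of pathway genes and of cell type markers were not tested, since 0 identifiers had a symbol in the RefSeq gene table and no printed counts beyond those of the 6 members, MYH7 and MYH1 were matched. Sequences and coordinates were not used here.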

Additional observations from a re-analysis of the deposited data

Results flagged for a closer look

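In 4 of 66 checks a muscle stood far from the others of its set by Dixon's test on log2 CPM, where chance would give about 3.3. The sets checked were group A, group B, A1, B1, the anterior and posterior muscles, and the segments and limb levels of 4 or more muscles, and they share muscles. Of these, 3 were parts of biceps femoris among the 5 proximal hindlimb muscles. PRKACA was high in the caudal part, at 33.4 CPM, with a gap to its nearest neighbor of 0.775 of the range. NOTCH1 was low in the middle part, at 5.82 CPM, with a gap of 0.750 of the range. JARID2 was low in the vertebral part, at 3.10 CPM, with a gap of 0.790 of the range. Among the 4 distal limb extensors, GTF2IRD1 was high in extensor digitorum communis, at 6.30 CPM, with a gap of 0.905 of the range. The caudal part of biceps femoris and extensor digitorum communis are the muscles of group A in these sets, and the other muscles of both sets belong to B. The 6 genes were chosen as higher in A, so the choice favored high values in the muscles of A. The number given for chance takes no account of that choice or of the shared muscles, and nothing is read from the comparison with it.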

How the results depend on the processing

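The difference between A and B kept its direction for all 6 genes under each of 20 alternatives per gene, and PRKACA showed no overlap of the groups under 3 scalings, though by a smaller gap with library totals (27.3 against 25.8 CPM). Of 12978 genes, 5 were called between anterior and posterior muscles, and DESeq2 called 263 of 9178 (1 of the 6 members). This count was 2 with at least 10 counts in every library, 2 with limb muscles only and 1 with longissimus as anterior. Leaving out 1 muscle gave 2 (without gluteus superficialis) to 29 (without the caudal part of biceps femoris), with 0 members in each of 17 fits. With the group in the fit the anterior log2 fold change was within 1 SE of 0 for PRKACA (-0.011), NOTCH1 (-0.0066) and NOS3 (0.02). Within B, a description added after the data were seen, the differences were -0.10, -0.20 and 0.02 in the same order. In place of the 2247 genes called between distal and proximal muscles, library totals alone gave 868, and leaving out 1 muscle gave 806 (without extensor digitorum lateralis) to 2212, with 0 to 2 members called. DESeq2 called 1 member there and 18.6% of 14933 genes. NOS3 was reversed with library totals (-0.013), without extensor digitorum communis (-0.31) and without extensor digitorum longus (-0.19), and leaving out 1 muscle gave -0.31 to 0.31. The cause of these changes was not tested. The r of PRKACA and NOS3 in B was 0.22, and -0.68 without the 2 farthest muscles. Counting error limits NOS3 most, at 14.9% in its library of fewest reads. No paired analysis was possible because each muscle of the 1 animal was sequenced once, and the labels give no replicate numbers.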
